A study of Mus musculus with 12 samples.

Results

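The active chromatin of the wild-type newborn mouse heart is described here as the genome regions carrying acetylated lysine 27 of histone H3 (H3K27ac) in each of 3 WT hearts. A region was kept when it was called in all 3 hearts, after the peak entries that share a start and an end had been merged within a heart and the regions of the hearts had been joined wherever they overlapped by at least 1 bp. This gave 36199 regions out of 75221 in the union of the 3 lists (48.1%). They are called shared regions below.

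The study set such WT hearts beside hearts lacking both Rxra and Rxrb in cardiomyocytes, with a matched input for every heart, 12 samples in all. RXR proteins are nuclear receptors that bind DNA with partner receptors. The mutant lists and the inputs were not used here. The 3 WT samples were total hearts taken at postnatal day 0, labelled with the numbers 1, 3 and 4, and their chromatin came from cardiac nuclei. The labels used here give no strain, sex or allele details for the WT newborns. Since whole hearts were taken, fewer cells of a type and less acetylation per cell cannot be told apart in any value below.

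H3K27ac is laid down by the acetyltransferases p300 and CBP and marks the nucleosomes beside active promoters and active enhancers. The DNA bound by transcription factors tends to lie in the gap between acetylated nucleosomes. Long runs of the mark often lie at genes that give a cell type its identity, and in the heart these include the contractile proteins and the transcription factors Gata4, Nkx2-5 and Hand2.

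The sequences at gene starts differ between heart muscle genes whose promoters hold few CG dinucleotides and widely used genes whose promoters hold many, and examples of both that carry shared regions are shown first. Each run below is the 150 bases before a listed transcription start, from RefSeq (GRCm38.p6, the same coordinates as mm10), written 5′ to 3′ on the gene's strand with every CG in capitals. Myh6 (chr14:54966608-54966757, minus strand), Myl2 (chr5:122092574-122092723, plus strand), Actc1 (chr2:114052876-114053025, minus strand) and Nppa (chr4:148000572-148000721, plus strand) are heart muscle genes. Nfyc (chr4:120825742-120825891, minus strand) and Hnrnpk (chr13:58402118-58402267, minus strand) lie at 2 of the 15 strongest shared regions. Alb (chr5:90460720-90460869, plus strand) encodes albumin, a liver protein, and had no shared region.
Myh6: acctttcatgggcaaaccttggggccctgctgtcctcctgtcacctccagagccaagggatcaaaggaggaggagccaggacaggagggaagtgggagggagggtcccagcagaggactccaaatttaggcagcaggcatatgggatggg
Myl2: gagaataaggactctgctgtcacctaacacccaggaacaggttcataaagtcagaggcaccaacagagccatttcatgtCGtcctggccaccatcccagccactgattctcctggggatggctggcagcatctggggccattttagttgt
Actc1: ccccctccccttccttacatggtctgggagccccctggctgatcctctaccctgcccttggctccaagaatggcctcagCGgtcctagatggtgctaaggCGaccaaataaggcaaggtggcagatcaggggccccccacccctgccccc
Nppa: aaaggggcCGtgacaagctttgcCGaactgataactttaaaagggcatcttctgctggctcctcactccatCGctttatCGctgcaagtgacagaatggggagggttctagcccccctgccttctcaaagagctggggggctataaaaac
Nfyc: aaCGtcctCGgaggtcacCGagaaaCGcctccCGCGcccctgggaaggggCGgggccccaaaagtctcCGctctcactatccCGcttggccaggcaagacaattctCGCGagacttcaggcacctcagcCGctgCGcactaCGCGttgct
Hnrnpk: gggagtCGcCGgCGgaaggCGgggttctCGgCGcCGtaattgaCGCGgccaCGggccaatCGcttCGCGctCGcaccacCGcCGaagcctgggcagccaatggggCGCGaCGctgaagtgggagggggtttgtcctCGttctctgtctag
Alb: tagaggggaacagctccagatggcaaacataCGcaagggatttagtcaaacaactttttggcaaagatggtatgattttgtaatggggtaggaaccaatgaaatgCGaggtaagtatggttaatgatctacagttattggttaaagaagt
Some genes have more than 1 listed start, and the first of each is shown. The run before Myh6 holds 0 CG, Myl2 holds 1, Actc1 holds 2 and Nppa holds 4. Nfyc holds 15 and Hnrnpk holds 20. At the other listed starts, the second of Myl2 holds 5, the second of Nfyc 23 and the third of Nfyc, at a separate region of 6236 bp, 2. Alb, with no shared region, holds 2, so a low CG count alone does not separate the marked heart genes from an unmarked liver gene in these 7 runs.

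The hearts gave lists of 57976 regions (WT 1), 62882 (WT 3) and 66325 (WT 4), covering 67.4, 68.3 and 59.1 Mb. WT 4 had the most regions, the least covered sequence and the narrowest regions, with a median of 533 bp against 766 bp in WT 1 and 698 bp in WT 3. Sequencing depth per heart is unknown. The shared regions made up 72.9%, 68.6% and 73.9% of the 3 lists and 88.7% ± 1.08 (SD, n = 3 hearts) of their covered sequence. WT 1 and WT 3 were closest: 6221 regions were called in those hearts and not in WT 4, against 2209 in WT 1 and WT 4 alone and 4108 in WT 3 and WT 4 alone. Where a list lacks a region, the region was not called in that heart, which does not show that the mark was absent.

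Sharing rose with the rank of a region within its own heart. Regions were ranked by the authors' fold enrichment, taken as the highest of their entries, and the rank was written as a percentile within the heart's list. In the lowest of 10 parts of a list, cut at every 10th percentile, 39.2% ± 6.79 (SD, n = 3) of regions were called in all hearts, in the fifth 65.4% ± 4.42 and in the top one 99.99% ± 0.00996. In the lowest the hearts stood at 40.8% in WT 1, 31.8% in WT 3 and 45.1% in WT 4. Shared regions had a median width of 1547 bp in the union and a median percentile of 68.1, averaged over the hearts. Just outside the rule, the 12538 regions called in 2 hearts had a median width of 585 bp and a percentile of 29.3, and the 26484 called in 1 heart had 310 bp and 20.8. Joining widens a region called in several hearts, and the percentile taken in each heart is the highest of its joined regions. Within each heart's own list, without joining, the median width was 982 ± 199 bp (SD, n = 3) for shared regions and 349 ± 43.8 bp for the others. The median percentiles were 63.5 ± 1.66 and 24.1 ± 1.48. Among the shared regions 4321 nonetheless lay below the 50th percentile in every heart.

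**Figure D1:**
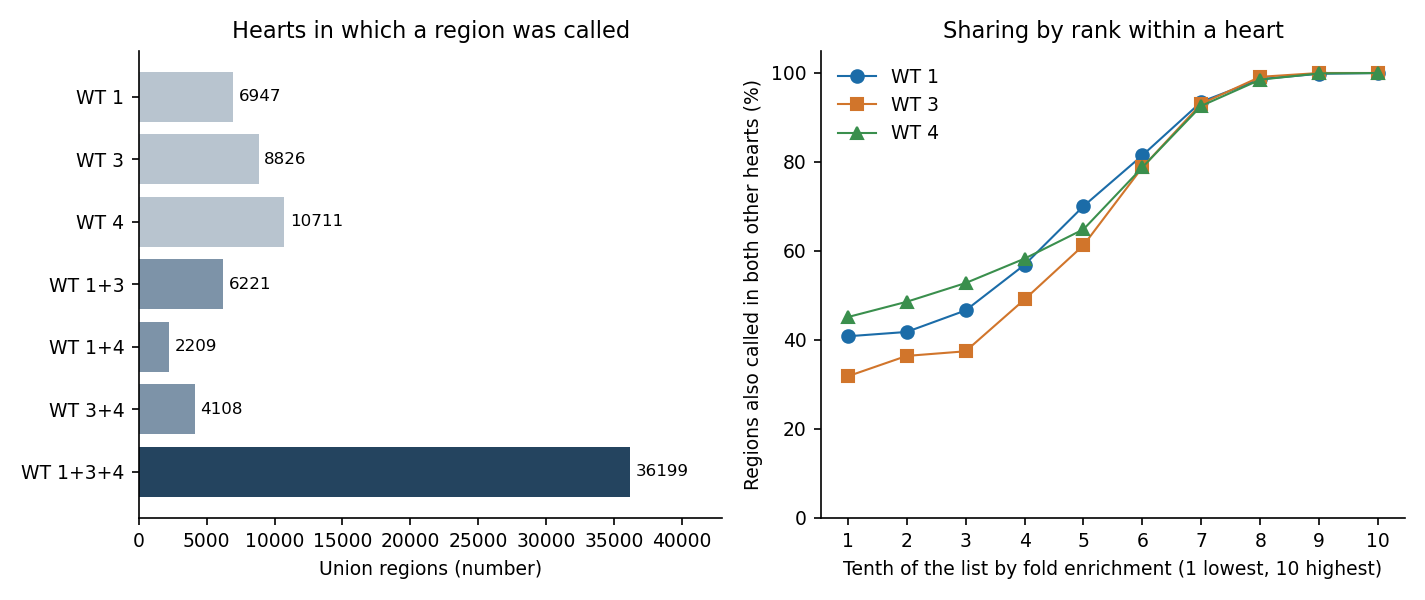
Left, the number of union regions by the set of hearts in which they were called; right, the percentage of a heart's regions that were also called in both other hearts, for each of 10 parts of its list cut by percentile of fold enrichment. The bar for all 3 hearts holds 36199 regions, and all 3 hearts are at 92.6% or more from the seventh upward.

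The percentile of a shared region agreed better between WT 1 and WT 3 than between either and WT 4. Across regions Spearman's rank correlation was 0.90 for WT 1 with WT 3, 0.84 for WT 1 with WT 4 and 0.87 for WT 3 with WT 4. These are descriptions across 36199 regions, which come from the same 3 libraries and are not independent replicates. The median SD of a region's percentile over the 3 hearts was 6.06. It was 3.0 at gene starts and 8.55 inside genes. Regions at starts lay nearer the top of the scale, with a median percentile of 85.8 against 53.2 inside genes. A percentile has less room to vary there, so the 2 SDs are not directly comparable.

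Gene starts carried the strongest shared regions, while most shared regions lay elsewhere. Of the 36199 shared regions, 11847 (32.7%) lay within 1 kb of a protein-coding start, 14787 (40.8%) elsewhere inside a gene, 7823 (21.6%) outside but within 100 kb of one and 1742 (4.81%) farther away. The median percentile at starts was 84.5 in WT 1, 87.1 in WT 3 and 85.8 in WT 4, a mean of 85.8 ± 1.26 (SD, n = 3). Inside genes it was 52.3, 55 and 52.5, a mean of 53.2 ± 1.53. The medians of these classes did not overlap between hearts, and no test was run on 3 hearts. Regions within 100 kb of a gene (57.4 ± 1.86) were a little above those inside genes in each heart, and the values farther away (53.6 ± 3.29) overlapped with those inside genes.

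Recurrence was also highest at starts. Of the 13766 union regions at a start, 86.1% were called in all 3 hearts, against 38.8% of the 38082 inside genes, 42.5% of the 18406 within 100 kb of a gene and 35.1% of the 4967 farther away. A total of 4486 shared regions were in the top 10% of every list, and 87.7% of them lay at a start. In the top 1% of every list there were 211, of which 93.4% lay at a start. Starts held 40.2% ± 1.04 (SD, n = 3) of the shared covered sequence and regions inside genes 38.1% ± 0.270. Starts were also wider in every heart: the median width at starts was 1483, 1523 and 1235 bp in WT 1, WT 3 and WT 4, and inside genes 915, 886 and 623 bp.

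The mark lay on both sides of the start and mainly downstream. Listed starts were available for 17274 of 21631 protein-coding genes, none of them on chromosome 18, and both gene ends stood in for the start of the rest. Over the 21045 listed starts, shared regions covered 51.1% ± 0.648 (SD, n = 3) at the start itself, 52.6% ± 0.384 at 100 bp downstream and 5.57% ± 0.319 at 2 kb upstream. Summits, the authors' positions of highest signal within a peak, were sparse at the start: the 100-bp bin there held 498 in WT 1, 454 in WT 3 and 548 in WT 4. The bin 200 bp downstream held 4172, 4303 and 4268, and the bin 300 bp upstream held 1635, 1777 and 1670. Of the summits within 1 kb of a start but more than 100 bp from it, 63.1%, 62.7% and 63% lay downstream. Of the 13367 genes longer than 5 kb with a listed start, 64.0% had a shared region at the start and 8.63% at the other end.

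**Figure D2:**
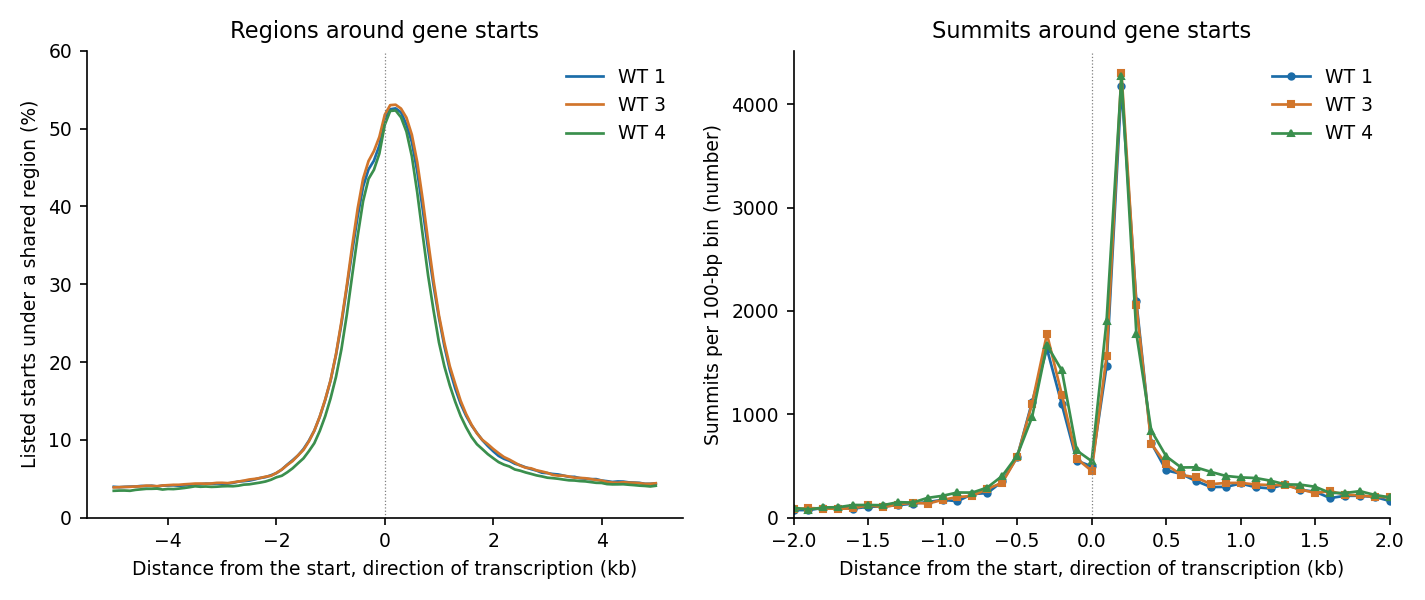
Left, the percentage of listed starts lying under a shared region, by distance in kb along the direction of transcription; right, summits of shared regions per 100-bp bin. One line per heart; summits peak 200 bp downstream and 300 bp upstream in all 3 hearts, with a trough at the start.

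Promoter composition went with calling. The 300 bases from 250 before to 50 after each listed start were scored for CG dinucleotides. Of the 5838 starts with 0 to 4 CG, 10.9% had a shared region within 1 kb. The share was 36.9% of 3147 starts with 5 to 9 CG, 73.4% of 4420 with 10 to 19 and 87.5% of 7640 with 20 or more. Among marked starts, the median percentile of the region was 79.0 in the class with 0 to 4 CG and 91.9 in the class with 20 or more. Width did not follow this order, since 11.8% of the marked starts with 0 to 4 CG lay in a union region wider than 5 kb, against 5.14% of those with 20 or more. The letters TATAAA, searched on both strands, were found in 6.50% of the 11728 marked starts and 20.4% of the 9317 unmarked ones, and GGGCGG in 66.2% and 22.1%. CCAAT was nearly even, at 37.5% and 39.7%. GGGCGG contains a CG, so its share is not independent of the CG count. Nor is that of TATAAA, found in 27.2% of all starts with 0 to 4 CG and 3.66% of those with 20 or more.

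Sarcomere genes, which encode the contractile apparatus, stood on the low side of this range and were marked all the same. Their 38 listed starts had a median of 5 CG, against 21 over all marked starts, and 94.7% of them had a shared region, against 55.7% of all listed starts. Respiratory chain genes had a median of 19 CG over 27 starts, and all of these were marked. Endothelial genes had a median of 7 CG over 18 starts, of which 88.9% were marked. Hepatocyte genes had a median close to that of sarcomere genes, 4.5 CG over 18 starts, and 11.1% of these were marked.

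Known motifs of muscle promoters were searched by name on both strands of the same windows: the MEF2 motif, bound by the MEF2 factors, and the CArG box, bound by serum response factor. MEF2 was found at 5 of the 38 sarcomere starts (13.2%), of 5 genes, and at 104 of all 21045 starts (0.494%). CArG was found at 7 sarcomere starts (18.4%), of 6 genes, and at 324 of all starts (1.54%). No sarcomere start held both. Matches at 7 of these genes are shown with 10 bases on each side and the match in capitals, to let the recurring letters be compared, and a match is a description of the letters and not evidence of binding. MEF2 matches lie 90 bases before the start of Mybpc3 (myosin binding protein C), 109 before Synpo2l (an actin-binding protein of muscle) and 166 before Ttn (titin). CArG matches lie 47 bases before Actc1 (cardiac actin), 85 before Myl3 and 61 before Myl7 (myosin light chains) and 99 before Myom1 (an M-band protein).
Mybpc3: tggaatttgtCTATATTTAGcaggtggcta
Synpo2l: gaaatttgtaCTATAATTAGttctaggagt
Ttn: ttctgaaaggCTAAATTTAGcactgccaat
Actc1: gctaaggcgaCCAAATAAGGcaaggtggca
Myl3: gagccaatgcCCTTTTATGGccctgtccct
Myl7: ccattcctctCCTTATTTGGgcctctgggt
Myom1: gccttcctggCCATAAAAGGctggctgtgg

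The widest shared regions lay at Myh7 and Hand2. The first, 26088 bp in the union, lay over the 5′ part and upstream sequence of Myh7, the beta myosin heavy chain that dominates the fetal mouse heart (chr14:54981860-55007947). It covered 25504 bp in WT 1, 24232 in WT 3 and 23681 in WT 4. Hand2, a transcription factor of ventricle development, came next with 25730 bp (chr8:57310837-57336566), covering 25369, 25532 and 24796 bp. These widths come from joining overlapping regions, and the place of the widest single region differed by heart. It was 24883 bp at Myh7 in WT 1, 23143 bp at Grb10 in WT 3 and 19158 bp at Hand2 in WT 4. In WT 3 and WT 4 the Myh7 outline was made up of several separate regions.

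The other 8 of the 10 widest varied in the genes they held. Grb10, an adaptor of insulin and growth factor receptors, had a region of 23216 bp, and Gata4, a core cardiac transcription factor, had one of 23058 bp inside the gene. A region of 22689 bp spanned Pln, which encodes phospholamban, the brake on the calcium pump SERCA2, and part of Cep85l. A region of 21297 bp lay over Malat1, an abundant nuclear noncoding RNA and outside protein-coding genes. Regions at Rassf4 and Depp1 (20498 bp), Egfl7, an endothelial secreted protein (20496 bp), Shb, a signalling adaptor (20454 bp), and Aopep, an aminopeptidase (20159 bp), completed them. Their mean percentiles ran from 88.9 at Egfl7 to 99.5 at Malat1. Of the shared regions 122 were wider than 10 kb, with a median percentile of 95.8. The percentile is taken from the highest entry, and wide regions hold more entries, so width and percentile are not independent. The 10 widest held 25 to 39 entries per heart, while 62.5% ± 3.44 (SD, n = 3) of a heart's regions held 1.

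The strongest regions were different from the widest. Only 3 regions were both among the 100 with the highest mean percentile and among the 100 widest. The 15 strongest were 2074 to 8203 bp wide, and 10 of them lay at a start. The top one lay at Klf7, a Krüppel-like transcription factor (chr1:64117724-64123198), with a percentile of 100 in WT 1, 99.998 in WT 3 and 99.994 in WT 4. Others lay at Nfyc (a subunit of the CCAAT-binding factor NF-Y), Hnrnpk and Ewsr1 (RNA-binding proteins), Mbnl1 (a splicing factor), Pcif1 (an mRNA cap methyltransferase), Zc3h4, Zfp91 (zinc finger proteins) and Epc1 (a subunit of the NuA4 acetyltransferase complex). Acadl, the long-chain acyl-CoA dehydrogenase of fatty acid oxidation, was the metabolic gene among them, with percentiles of 99.93, 99.98 and 99.88. Ywhaz (a 14-3-3 protein), Trim8 (a ubiquitin ligase) and Bicral (a chromatin remodelling subunit) were also on the list. Another 2 of the 15 lay outside protein-coding genes, 30429 bp from Ptpdc1 and 5707 bp from Spen. Epc1, on chromosome 18, ranked first in WT 3 and at 99.84 in WT 1, the lowest single-heart percentile of the 15.

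Genes were then compared by the sequence covered in a window made of the gene body with 10 kb before and after it. Of 21631 protein-coding genes, 14416 (66.6%) had at least 1 shared region in this window and 12035 (55.6%) had one within 1 kb of a start. The median over genes with a shared region was 2808 bp. Only 355 genes (1.64%) exceeded 20 kb and 22 exceeded 50 kb.

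Tns1, which encodes the focal adhesion protein tensin 1, had the most covered sequence: 122579 bp in WT 1, 119928 in WT 3 and 119985 in WT 4, a mean of 120831 ± 1514 (SD, n = 3) in 43 regions. It lies on chromosome 1 (chr1:73910232-74124548), and 51.6% of its window was covered. Rbm20, the splicing regulator of titin, had 90697, 85996 and 85486 bp. The lowest Tns1 value exceeded the highest of Rbm20, so the hearts' values did not overlap.

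The other genes among the top 20 have varied roles. Rbpms, an RNA-binding protein of heart and smooth muscle, had 85272 ± 4862 bp, and Msi2, a Musashi RNA-binding protein, had 80469 ± 2027 bp. Mical2, an actin-oxidising enzyme, had 78075 ± 4372 bp, Ablim1, an actin-binding LIM protein, 65320 ± 2630 bp, and Shroom3, another actin-binding protein, 60337 ± 5005 bp. The nuclear factor I genes Nfia (75740 ± 2632 bp) and Nfib (62310 ± 5169 bp) were both on the list, as was the transcriptional coregulator Zmiz1 (75211 ± 2015 bp). Arhgap26, a GTPase-activating protein, had 76613 ± 6734 bp, Pakap, an anchor of protein kinase A, 68061 ± 5971 bp, and Lrrfip1 65682 ± 2695 bp. Col4a2, a basement membrane collagen, had 64400 ± 5971 bp. Ppargc1a, the coactivator that drives mitochondrial gene expression, had 61867 ± 6335 bp.

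The 20 ended with Nav2 (61422 ± 4072 bp), Pitpnm2, a phosphatidylinositol transfer protein (55415 ± 4316 bp), Cdkal1, a tRNA-modifying enzyme (55288 ± 4280 bp), and Rad51b, a recombination protein (54372 ± 6811 bp). The hearts' values overlapped in 17 of the 19 pairs of neighbouring ranks, and Zmiz1 with Pakap was one of the exceptions. Just outside, Tcf4 had 52524 ± 5552 bp. Of the 20, WT 4 had the lowest value in 15, and its regions were narrower over the whole list. The 20 were long, with a median length of 252120 bp against 17329 bp over all genes. Over the 14416 genes with a shared region the rank correlation of length and covered sequence was weak (Spearman 0.17). Nfia was the one gene among them with no shared region at a listed start.

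Ranking by the share of the window that was covered, which takes length into account, gave short genes, with a median length of 4443 bp in the top 10. Hand2 was covered over 98.9% ± 0.856 (SD, n = 3) of its window, and Myh7 over 92.2% ± 2.86. Nkx2-5, the homeobox factor of early heart formation, had 67.8% ± 1.04. Its window held 2 regions, of 13179 bp at the start (percentile 94.8 ± 2.73) and 4995 bp upstream (98.3 ± 0.242). Txnip, a thioredoxin inhibitor that restrains glucose uptake, had 88.1% ± 3.21, Crip2, a LIM protein of heart and vessels, 77.4% ± 1.32, and Sox18, an endothelial transcription factor, 70.8% ± 3.17. Irf2bp2, a transcriptional corepressor, had 72.6% ± 4.16. The predicted genes Gm46294 (87.8% ± 2.10), Gm30599 (74.9% ± 3.23) and E030018B13Rik (68.0% ± 6.24) completed the 10. Gm30599 lies beside Crip2 and their windows overlap, so the same regions count for both. When each region was given to its nearest gene only, Gm46294 and E030018B13Rik were left with 0 bp, Gm30599 with 0.21 times its value, Sox18 with 0.45 times and Crip2 with 0.47 times, whereas Irf2bp2 came to 2.64 times.

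**Figure D3:**
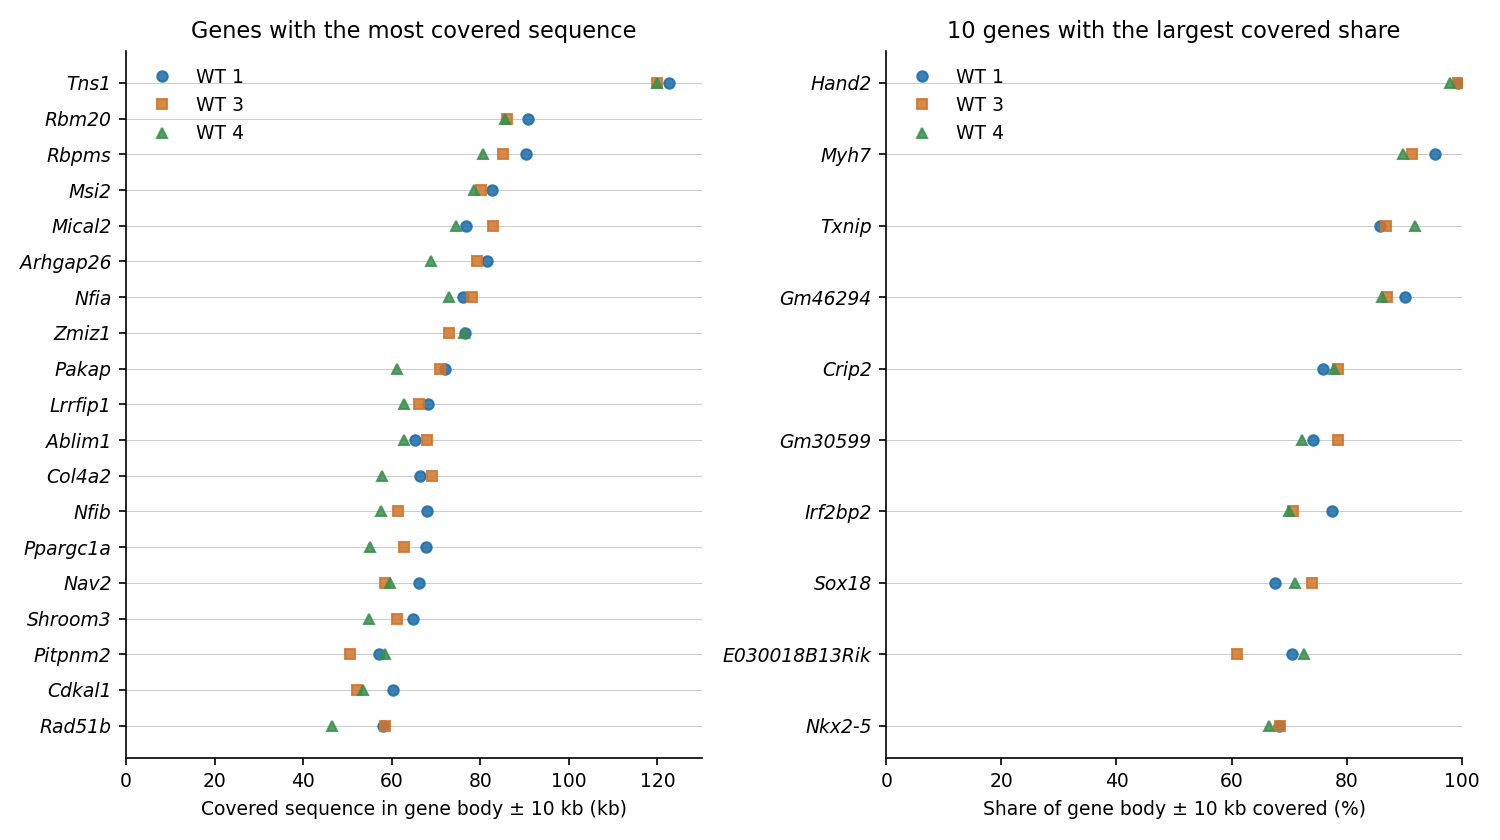
Left, covered sequence in kb for 19 of the 20 genes with the highest mean; right, percentage of the window covered for the 10 genes with the highest share. Each point is 1 heart, and Tns1 (119928 to 122579 bp) stands clear of the other genes shown in all 3 hearts.

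Contractile genes were marked throughout and over long stretches. All 32 sarcomere genes had a shared region and all 32 had one at a start, against 66.6% and 55.6% of all protein-coding genes. Their median covered sequence was 12785 bp, against 1555 bp over all genes. Actn2, the Z-disc crosslinker alpha-actinin 2, had 43790, 40527 and 39726 bp in WT 1, WT 3 and WT 4. Ldb3, another Z-disc protein, had 37525, 38093 and 38526 bp, so the order of the hearts was not the same for both genes. The lowest member was Xirp2, an actin-binding protein of the intercalated disc, with 1442, 1211 and 277 bp.

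The paired myosin genes shared their chromatin. Myh7 had 41893, 40140 and 39459 bp and its neighbour Myh6, the alpha heavy chain of the adult mouse heart, had 25283, 26591 and 26052 bp. The 2 windows overlap and have 3 regions in common, one of them the 18735-bp region that holds the Myh6 start (chr14:54956318-54975052), with percentiles of 98.7, 96.5 and 98.5. Tnnt2, cardiac troponin T, had 7 shared regions. The widest, 9692 bp, held the start with percentiles of 98.5, 97.3 and 98.97. One of 2917 bp beside it had a mean percentile of 92.9, and the other 5 lay between 34.0 and 64.9.

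**Figure D4:**
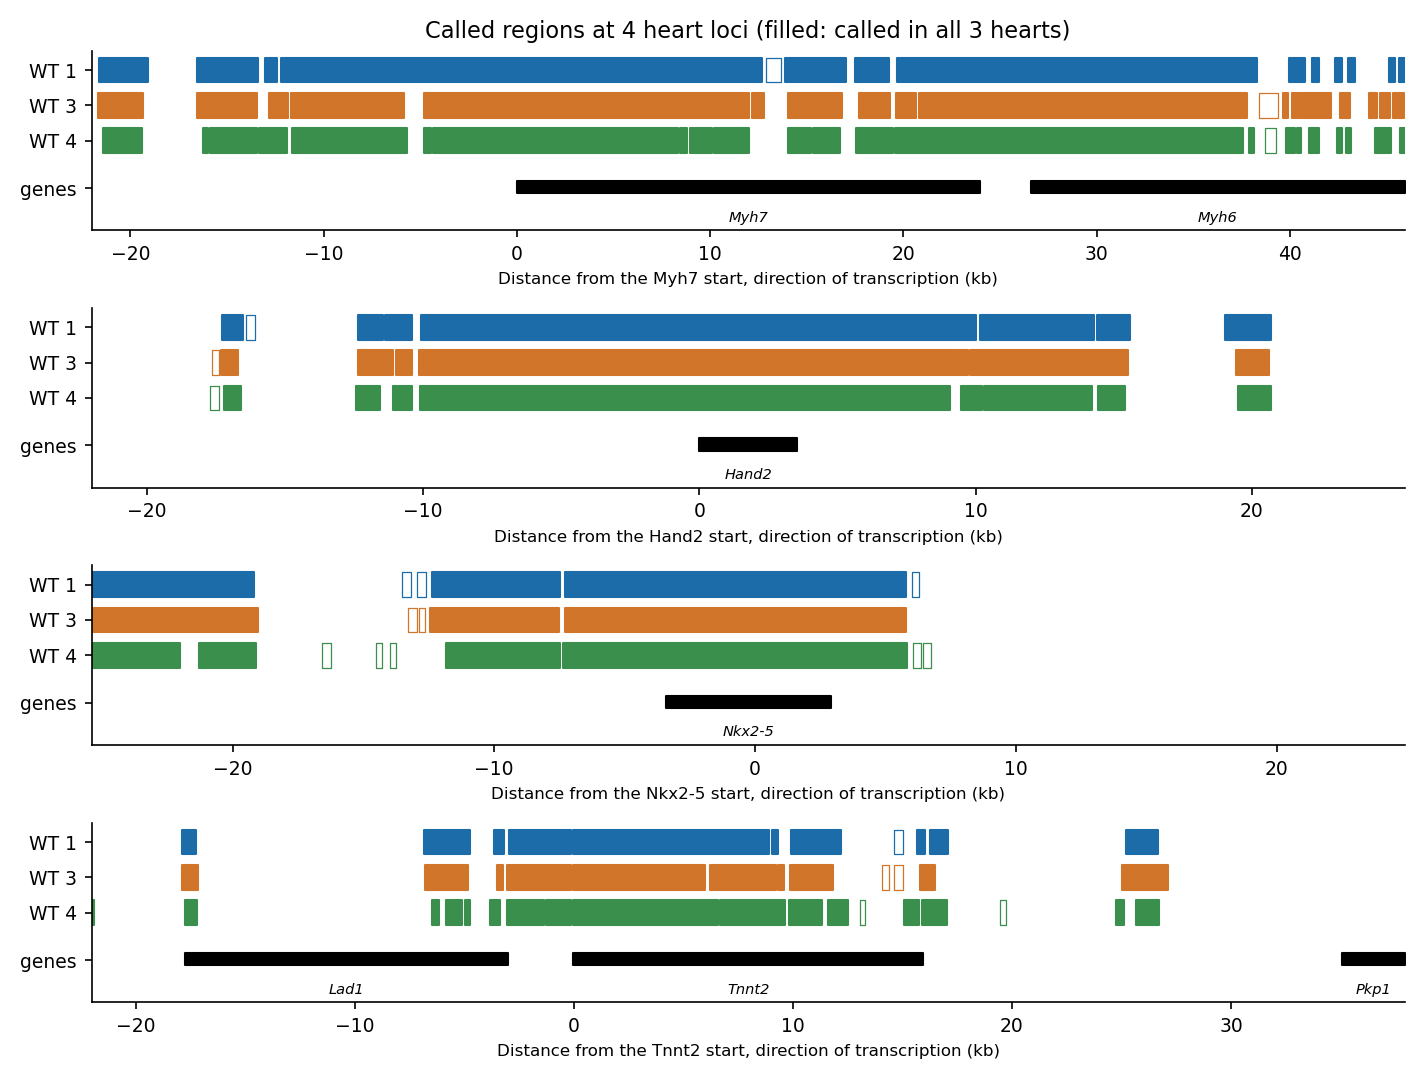
Called regions of each heart around Myh7, Hand2, Nkx2-5 and Tnnt2, by distance in kb from the start along the direction of transcription; filled boxes belong to shared regions and open boxes to regions not called in every heart. Hand2 and Nkx2-5 lie inside runs of called sequence that reach well beyond the gene on both sides in all 3 hearts.

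Cardiac regulators and calcium genes had medians at or above that of the sarcomere genes. Of 28 cardiac regulators 27 had a shared region (96.4%) and 25 had one at a start (89.3%), with a median of 19835 bp. Over all protein-coding genes these shares were 66.6% and 55.6%, and over a list of 20 widely used control genes 100% and 95%. The Gata4 window held 9 shared regions with 47883, 48732 and 46854 bp, and Tbx20, a T-box factor of the heart, had 22837, 23090 and 23467 bp. Hand1, the left ventricular relative of Hand2, had only 1277, 1020 and 871 bp. Isl1, a factor of second heart field progenitors, had no shared region and 238 bp called in WT 4 alone. All 25 calcium and conduction genes had a shared region and 22 had one at a start, with a median of 12806 bp. Cacna1c, the pore of the L-type calcium channel, had 49410, 49063 and 47559 bp in 27 regions. Camk2d, the main cardiac calmodulin kinase, had 47892, 44418 and 34240 bp, and Kcnq1, a potassium channel of repolarisation, 41731, 39340 and 36714 bp. The low value of Camk2d in WT 4 gave it a wider spread than Cacna1c.

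Fetal and stress genes were uneven. Of 15 matched members 13 had a shared region at a start (86.7%, against 55.6% of all protein-coding genes), and the median was 5823 bp. Tnni1, the slow skeletal troponin I that the fetal heart uses, had 19844, 20067 and 17986 bp, Xirp1, an intercalated disc protein, 13020, 13032 and 11272 bp, and Actc1 11960, 11171 and 10140 bp. Nppa, which encodes atrial natriuretic peptide, had a single region of 3544 bp in WT 1, 3924 in WT 3 and 1321 in WT 4, with percentiles of 80.1, 78.4 and 47.7. WT 4 covered less than 50% of it, and Nppa had 0 bp where each heart had to cover at least that much of a region. Its neighbour Nppb, B-type natriuretic peptide, had 7036, 6062 and 4318 bp, and the region at its start reached percentiles of 98.2, 95.1 and 87.4. WT 4 was lowest for both peptides. Acta1, skeletal actin, had no called sequence in any heart. Sln, sarcolipin of the atria, had called sequence in every heart (383, 2611 and 487 bp) but no region in common.

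Energy metabolism genes were marked throughout, with lower medians of covered sequence than the sarcomere genes. All 32 fatty acid oxidation genes had a shared region at a start, with a median of 6965 bp. Of all protein-coding genes 55.6% had one there, and of the widely used control genes 95%. Esrrg, a nuclear receptor of oxidative metabolism, had 34724, 28391 and 21912 bp, and Cd36, the fatty acid transporter, 29326, 30272 and 23196 bp. Fabp3, the heart fatty acid binding protein, had 16465, 16623 and 16854 bp, which was 62.3% of its window. All 24 glycolysis genes were marked at a start, with a median of 5882 bp. Hk2 and Hk1, hexokinases, had means of 24485 ± 698 and 17353 ± 887 bp (SD, n = 3), and Pkm, pyruvate kinase, 12789 ± 608 bp.

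The 34 respiratory chain genes and the 23 tricarboxylic acid cycle genes were likewise all marked at a start, against 55.6% of all protein-coding genes. Their medians were 3117 and 2693 bp, closer to the 2808 bp of all genes with a shared region. The strongest region of each gene had a median percentile of 98.6 and 98.1 in these groups, against 97.8 for the sarcomere genes. The value was 96.1 for fatty acid oxidation, 93.5 for glycolysis and 96.0 for the widely used control genes. Atp5d and Atp5b, ATP synthase subunits, had means of 11109 ± 381 and 8860 ± 300 bp. Most of this lay in the flanks: the gene bodies of Atp5d and Atp5b alone held 3122 and 1409 bp, and regions given to their nearest gene only came to 2236 and 3007 bp. Idh2, mitochondrial isocitrate dehydrogenase, had 14989 ± 541 bp, and Cs, citrate synthase, 9387 ± 584 bp. Mdh1, the cytosolic malate dehydrogenase, had 9676 ± 881 bp, and Mdh2, the mitochondrial form, 3488 ± 98.6 bp. The tricarboxylic acid cycle list also held the pyruvate dehydrogenase genes Pdha1, Pdhb, Pdhx and Dlat.

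Signalling and cell cycle genes were marked in nearly every case. Of 36 signalling genes 35 had a shared region (97.2%) and 32 had one at a start (88.9%), against 66.6% and 55.6% of all protein-coding genes. The median of the list was 7303 bp. Igf1r, the insulin-like growth factor receptor, had 39397 ± 5190 bp, and Smad6 and Smad7, inhibitors of BMP and TGF-beta signalling, had 23339 ± 1121 and 19928 ± 2972 bp. Bmp10, a ligand made by atrial and trabecular muscle, had no called sequence in any heart. All 29 cell cycle genes had a region at a start, with a median of 2514 bp. Ccnd3, a D-type cyclin, had 26438 ± 710 bp, Cdk6 16284 ± 1800 bp, and Cdkn1b, a cyclin-dependent kinase inhibitor, 11301 ± 766 bp. The 20 widely used control genes all had a shared region, 19 of them at a start, with a median of 4136 bp. Eef2 had 10766 ± 569, Actb 8279 ± 262 and Gapdh 7477 ± 281 bp. The body of Eef2 alone held 1463 bp, and regions given to their nearest gene only came to 4649 bp.

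Endothelial and fibroblast markers had shared regions in these lists, smooth muscle and epicardial markers were mixed, and those of other organs were mostly missing. All 9 defining cardiomyocyte markers had a shared region at a start, against 55.6% of all protein-coding genes. Their summed covered sequence was 171704, 170160 and 164408 bp in WT 1, WT 3 and WT 4. The windows of Myh6 and Myh7 overlap, so the regions they have in common count for both in this sum. Flanks count as well: the body of Tnni3 alone held 3893 of its 14590 bp. With the stricter demand that each heart cover at least 50% of a region the count was 8, since the only region of Nppa was lost. All 5 endothelial markers (46801, 47592 and 39562 bp) and all 5 fibroblast markers (19675, 33178 and 27734 bp) also had a shared region at a start. WT 1 was lowest for the fibroblast markers, and in each of the 5, including Col1a1 (5861, 11836 and 9802 bp) and Pdgfra (4134, 6450 and 5736 bp). WT 1 was also lowest for the sums of smooth muscle and pericyte markers (8711, 11440 and 9338 bp) and of erythroid markers (2058, 2626 and 2559 bp, all from Klf1). It was not the lowest for the cardiomyocyte, endothelial, epicardial or leukocyte sums. With regions called in WT 3 and WT 4 alone, without WT 1, the mean for Col1a1 was 13850 bp in place of 9166 bp. The part of cell make-up in this difference was not tested.

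The longer endothelial list had shared regions at all 24 members and at the starts of 23 (95.8%), against 66.6% and 55.6% of all protein-coding genes. The median of the list was 7103 bp. Notch1 had 19753 ± 2361 bp, Fli1, an ETS factor of endothelium, 19006 ± 1767 bp, Egfl7 18767 ± 401 bp, and Pecam1, the adhesion molecule CD31, 18316 ± 657 bp. All 20 fibroblast and matrix genes had one, 19 at a start, with a median of 3727 bp and the highest mean in Fstl1, a secreted glycoprotein (10995 ± 832 bp). The fibroblast list had a median strongest percentile of 73.6, against 86 for endothelium and 97.8 for sarcomere genes.

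Smooth muscle and epicardial markers were mixed. Of 14 smooth muscle and pericyte genes 11 had a shared region (78.6%) and 10 had one at a start (71.4%). Over all protein-coding genes these shares were 66.6% and 55.6%. The list was led by Smtn, smoothelin, with 12244 ± 1083 bp, Abcc9, a subunit of ATP-sensitive potassium channels, with 11487 ± 706 bp, and Cspg4, the pericyte antigen NG2, with 11072 ± 498 bp. Tagln (0, 1944 and 953 bp called), Rgs5 (0, 370 and 299 bp) and Myh11 (320, 626 and 561 bp) had no region common to the hearts. Of 12 epicardial genes 7 had a shared region (58.3%) and 6 had one at a start (50%), both below the shares of all protein-coding genes. Sema3d, a secreted guidance protein, had 8840 ± 1206 bp, Tbx18 7829 ± 857 bp and Wt1 7254 ± 1189 bp, while Upk3b, Msln, Aldh1a1, Lrrn4 and Bnc1 had none. Lrrn4 and Bnc1 had no called sequence in any heart.

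Blood cell markers were sparse. Of 16 leukocyte genes 6 had a shared region in the window and 2 had one at a start, below the 66.6% and 55.6% of all genes. Spi1, the myeloid factor PU.1, had 9205 ± 769 bp in its window, which reaches into Mybpc3, a sarcomere gene. In the body of Spi1 alone the mean was 2414 bp (7.23% of its length), and 3464 bp when each region was given to its nearest gene only. Ptprc, Csf1r and Adgre1, the other defining leukocyte markers, had none. The regions near Cd68 (4356 ± 336 bp) and Fcer1g (3559 ± 101 bp) covered 0% of the gene bodies and lay in the flanks, where neighbouring genes also lie. Of 16 erythroid genes 8 had a shared region and 6 had one at a start, led by Ank1, an ankyrin (9310 ± 426 bp), and Tal1, a transcription factor of blood and vessels (7107 ± 540 bp). Klf1, an erythroid factor, had 2414 ± 310 bp, and Hba-a1, Hbb-bs, Alas2 and Gata1 had none. The globin genes have near-identical copies, so their absence from the lists is uncertain.

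Lists of other organs had few members with a region at a start, against the 55.6% of all genes. The share with any region was also below the 66.6% of all genes, though skeletal muscle, at 55.6%, was near it. Of 18 brain neuron genes 6 had a shared region and 0 had one at a start, and of 16 genes of neurons and Schwann cells 6 and 3 did. The region near Slc17a7, a vesicular glutamate transporter, had a percentile of 98.7 yet covered 0% of the gene body. Of 18 hepatocyte genes 5 had a shared region and 3 had one at a start. Of 18 skeletal muscle genes 10 and 3 did, led by Tnnt3, fast troponin T (7352 ± 450 bp), while Myod1, Myf5 and Pax7 had none. The body of Tnnt3 alone held 2367 bp, and regions given to their nearest gene only came to 2848 bp. Of 15 genes of epidermis and gut 3 had a shared region and 1 had one at a start. Of 21 Hox genes 9 and 3 did, at the anterior members Hoxb3 (4267 ± 651 bp), Hoxb2 (3106 ± 502 bp) and Hoxa2 (2635 ± 605 bp) most of all. Over all lists 97 members had no shared region, and 68 of these had no called sequence in any of the 3 hearts.

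**Figure D5:**
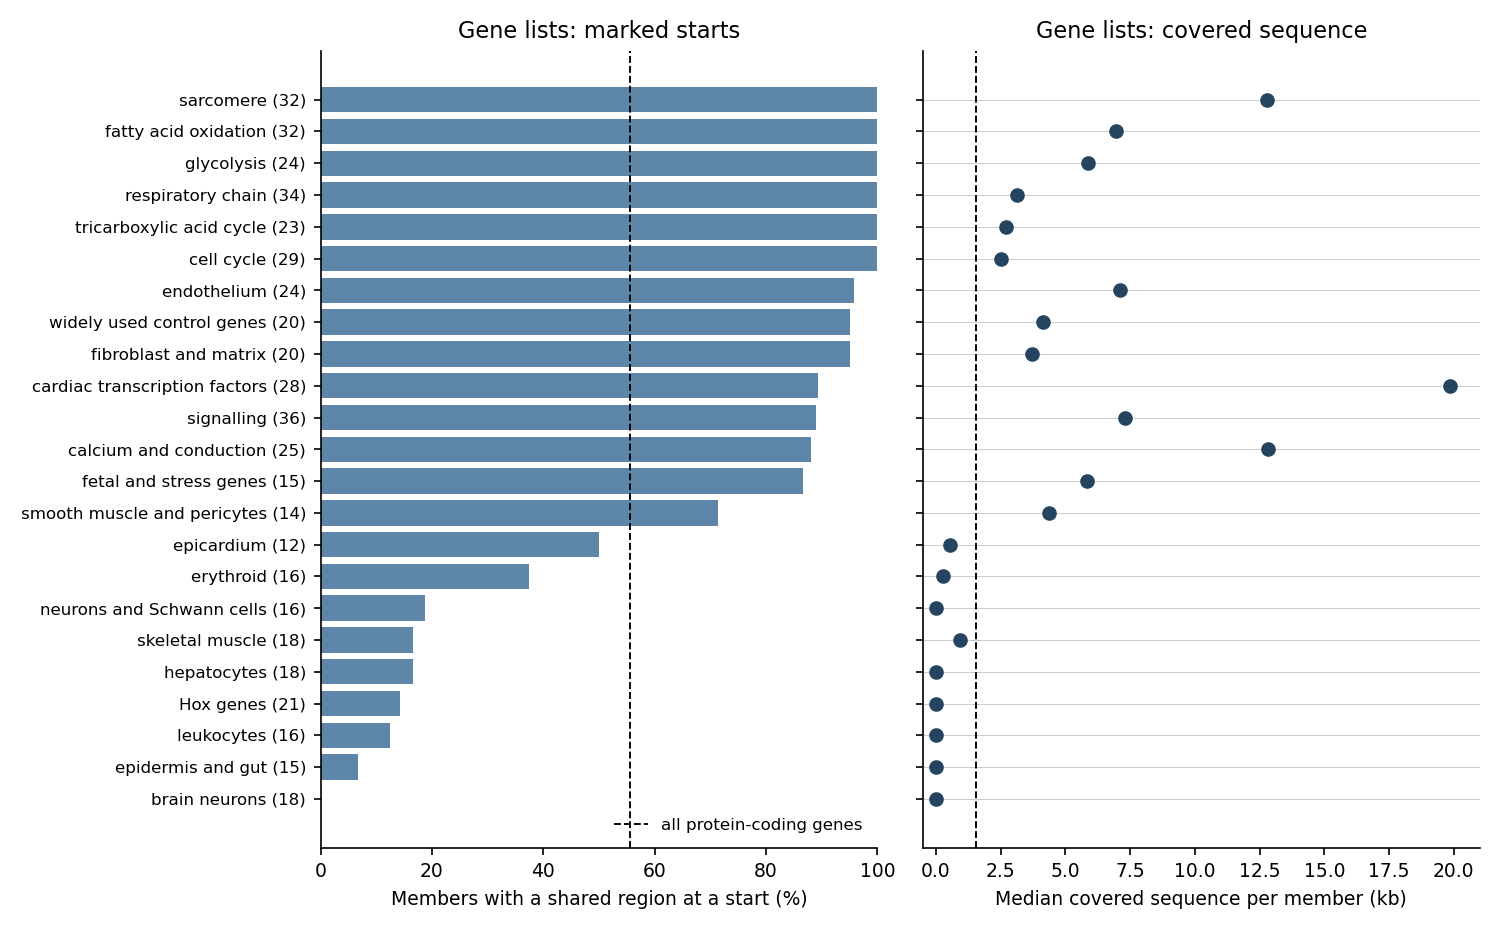
Left, the percentage of each gene list (number of matched members in parentheses) with a shared region at a start, beside the 55.6% of all protein-coding genes (dashed); right, the median covered sequence per member in kb, beside the 1555 bp of all genes (dashed). Sarcomere, metabolism, cell cycle, endothelial and fibroblast lists lie right of the line on the left, and lists of other organs lie left of it.

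The microRNA gene Mir208b lay inside a shared region at the myosin genes, and Mir208a within the joined outline of another. miR-208a is encoded within Myh6 and miR-208b within Myh7, and miR-499 within the related gene Myh7b. The mature sequences from RefSeq are shown with the seed, bases 2 to 8 and the part that pairs with targets, in capitals.
miR-208a-3p: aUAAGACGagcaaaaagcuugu
miR-208b-3p: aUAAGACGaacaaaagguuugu
miR-499-5p: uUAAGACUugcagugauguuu
The first 2 share 1 seed, and the seed of miR-499-5p differs from it at base 8 alone. The hairpins Mir208a (chr14:54949060-54949142, minus strand) and Mir208b (chr14:54975700-54975776, minus strand) both lay inside the outline of a shared region, joined over the hearts. So did 133 of the 1005 hairpins searched (13.2%). Called regions of every heart covered Mir208b. Mir208a was covered in WT 3 and lay between called regions in WT 1 and WT 4. The covered sequence within 10 kb of Mir208b was 18027, 17278 and 16709 bp in WT 1, WT 3 and WT 4, and of Mir208a 7279, 8622 and 8145 bp. Mir499 was not inside a shared region and had 1136, 1064 and 751 bp within 10 kb. Mir126a, the endothelial microRNA gene in Egfl7, had 8609 ± 275 bp (SD, n = 3) within 10 kb, and Mir22 lay inside a region with 7113 ± 26.1 bp. Over all 1005 hairpins, 497 (49.5%) had a shared region within 10 kb, so a region at that distance is common. Mir133b and Mir206, of skeletal muscle, Mir142 and Mir223, of blood cells, Mir9-1, of neurons, and Mir375, of the endocrine pancreas, had none. The erythroid Mir451a and Mir144, which lie side by side, had 1043, 1149 and 1032 bp from the same regions. Mir302a, of pluripotent cells, lies within Larp7 and had 3264 ± 565 bp within 10 kb.

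The X chromosome carried fewer shared regions than any autosome, 745 for 966 protein-coding genes or 0.771 per gene, against 1.10 on chromosome 7, the lowest autosome, and 2.70 on chromosome 18, the highest. On the X 44.0% of genes had a shared region, against 56.2% to 75.9% on the autosomes. The median percentile of the X regions was 72.0, the highest of all chromosomes. The body of Xist, the noncoding RNA that silences one X in females, had 2352 bp called in WT 1 and 0 in WT 3 and WT 4. The labels used here do not give the sex of the hearts.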

How the data were processed

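H3K27ac ChIP-seq had been run on whole postnatal day 0 hearts, per the labels. The submitters' processing notes list the tools cutadapt, BWA, SAMtools and MACS2 (no versions) with mm10 and GRCm38 as builds. For peak calling, settings and input controls are not stated in the sources at hand. The authors deposited 1 peak list per heart, called on that heart alone. The deposited fold enrichment of a peak is a ratio to background, and the deposited −log10 p-value and −log10 q-value give its significance. These values, computed by the authors, served here only for ranking and filtering inside each list. The smallest −log10 q was 1.30 to 1.32 per list. The labels give an average number of reads over the series, and depth per heart is unknown, so no counting interval is given. Hearts WT 1, 3 and 4 were treated as replicates; nothing in the labels says whether they shared a litter.

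Entries with the same start and end were merged into regions, and regions of the hearts were joined at 1 bp overlap. Chromosomes 1 to 19 and X were used; the lists held 0 entries on Y or the mitochondrial genome, and 1, 1 and 4 regions on unplaced sequence were left out. Gene positions, starts and sequences came from RefSeq (GRCm38.p6). Covered sequence per gene is the heart's own regions within shared regions, summed over the gene body with 10 kb before and after it. Of 493 genes in 23 lists, 492 were matched by symbol. Members and lists were chosen with earlier results of these data known, so values are descriptions and no test was run. Genes named are the 20 with most covered sequence, those at the 15 strongest and 10 widest regions, the 10 with the largest covered share, 3 per list, list members without a region where 5 or fewer, and defining cell type markers; others show the range of a list or a neighbour and were picked with their values in view. Some items that the rule would name are not reported here. Overlap and coverage functions were tested on simulated data. Python 3.11.15, numpy 2.4.6 and pandas 2.3.3 were used, with matplotlib 3.10.9.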

Additional observations from a re-analysis of the deposited data

How the results depend on the processing

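The limits are the number of hearts (3), the unknown depth, and lists whose length and region width differ between hearts. Counts of shared regions ran from 26981 (only entries with −log10 q of at least 5) to 43242 (called in WT 1 and WT 3, leaving out WT 4), and counts of genes with a shared region from 12957 (gene body alone) to 14691, all within 1.5 times the reported counts. The share of shared regions at starts, 32.7% as reported, was 41.3% with the stricter lists, 34.2% with lists cut to equal length, 40.2% where each heart had to cover at least 50% of the region, 35.6% with a 2.5 kb window, 38.8% with the starts of all annotated genes, and 31.8% with both ends of every gene, an alternative chosen after seeing the data. Leaving out 1 heart at a time gave 28.3% to 30.4%. With the stricter lists the median width was 1361 bp (982 bp as reported, per heart), the percentile at starts 81.5 and away from starts 50.3. With a 2.5 kb window the percentile at starts was 84.3. With the 50% cover rule the percentile away from starts was 61.8 (54.9 as reported), and leaving out 1 heart gave 50.8 to 53.3. Starts stayed above other regions in each of these settings. The median covered sequence per gene was 2808 bp, 1328 bp with the gene body alone and 2137 bp when a region was given to the nearest gene only. Of the 20 genes with most covered sequence, 18 to 20 remained among the 20 under each alternative. Of 114 genes chosen by the naming rule or as markers, the covered sequence moved by over 1.5 times for 52 with the gene body alone, 34 with the nearest gene only, 9 with the 50% cover rule, 7 with the stricter lists, 2 with equal-length lists and 0 with all called regions. With the nearest gene only, Kdr had 3.07 and Nkx2-5 1.86 times the reported value, Atp5d 0.2 times and Gm46294 and E030018B13Rik 0 bp. With the 50% cover rule 3 of the genes, Nppa among them, had 0 bp, Tek had 0.44 and Wt1 0.54 times. Leaving out 1 heart moved the covered sequence of 1 named gene by over 1.5 times, Col1a1 without WT 1 (13850 bp, 1.51 times). List counts moved by over 1.5 times for epidermis and gut (3 with a region, 1 with the stricter lists; 1 at a start, 0 with the stricter, equal-length or 50% cover settings), for Hox genes (9 with a region, 5 with 50% cover) and for leukocytes at a start (2, and 1 without WT 4). No paired analysis was possible because the 3 hearts form 1 group and no test was run.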
